A study of Mus musculus with 9 samples.

Results

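The genes described here are 8 major protein genes of peripheral myelin: Mbp, Pmp22, Pmp2, Mag, Cnp, Prx, Gjb1 and Mal. They were chosen by name as known myelin protein genes, with earlier results of these data known, and all 8 were found among the 36121 genes of the expression table and were expressed highly enough to be tested, as were 15014 genes in all. The material was whole sciatic nerve RNA of 9 mice at postnatal day 21, with 3 mice (2 females and 1 male) per genotype. The study asked how Schwann cells, the myelinating glia of peripheral nerve, depend on the RNA-binding protein TDP-43, encoded by Tardbp.

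The control mice carried 2 floxed Tardbp alleles and no Cre (Tardbp-fl/fl). The conditional heterozygotes (cHet) carried Cnp-Cre with 1 floxed allele (Cnp-Cre; Tardbp-fl/+), and the conditional knockouts (cKO) carried Cnp-Cre with 2 (Cnp-Cre; Tardbp-fl/fl). The strain label was C57BL6 throughout. Cnp-Cre is a knock-in at the Cnp locus and recombines in Schwann cells and in oligodendrocytes, the myelinating glia of the brain and spinal cord. Every cHet and cKO mouse therefore carried the insertion in Cnp and no control did. Groups were taken from the sample titles. The separate genotype field differed from the title for 3 libraries, cHet ID-2742 (Tardbp-fl/fl) and cKO ID-2744 and ID-2747 (Cnp-Cre; Tardbp-fl/+).

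Tardbp itself was listed at 185 to 217 normalized TPM in control, 177 to 186 in cHet and 94.2 to 103 in cKO, and so separated the cKO libraries as titled from the rest. The Schwann cell markers Sox10, S100b, Erbb3 and Cdh19 summed to 961 to 1268 in control, 966 to 1205 in cHet and 1223 to 1565 in cKO. Of these only S100b was higher in cKO than in control (log2 fold change 0.60), beside Sox10 (-0.11), Erbb3 (-0.25) and Cdh19 (-0.01). With equal weight per gene, their mean log2 levels relative to the median library overlapped. They were -0.23 to 0.19 in control, -0.26 to 0.15 in cHet and -0.06 to 0.16 in cKO. Of 8 oligodendrocyte markers only Mobp and Hapln2 reached a mean of 1, with summed levels of 11.1 to 151, 11.9 to 21.7 and 23.3 to 40.2, the highest in control ID-2754. Markers of tissue around or inside the nerve differed between libraries within a genotype: neuron markers were highest in control ID-2746, cHet ID-2742 and cKO ID-2748, skeletal muscle markers in control ID-2743 and cKO ID-2748, and adipocyte markers in control ID-2743 and ID-2754. In whole nerve, fewer cells of a type and less RNA per cell cannot be told apart.

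Peripheral myelin is a spiral of Schwann cell membrane. In its compact layers the membranes are held together by adhesive proteins, PMP22 among them, on the outer faces and by the basic proteins MBP and P2 on the cytoplasmic faces. Uncompacted regions (the inner wrap facing the axon, the paranodal loops, the Schmidt-Lanterman incisures and the outer wrap) keep cytoplasm, and there MAG, CNP, connexin 32 and periaxin are found. Their genes are switched on together during myelination under the transcription factors Sox10 and Egr2, and changes in the dosage or sequence of several of them, among them PMP22, connexin 32 and periaxin, cause inherited Charcot-Marie-Tooth neuropathies.

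Promoter sequence is shown for members with and without a called difference. SOX family factors, Sox10 among them, bind sites related to ACAAAG. RefSeq start sites on GRCm38.p6 gave windows of 250 bases upstream for 6 of the 8 members, 14 windows in all. Mbp and Pmp2, the member with the largest change, had no window in the table used. ACAAAG or its reverse complement CTTTGT was present in 5 of these 14 windows, which belonged to 3 members (Cnp, Gjb1 and Mag) and of which the 2 Mag windows overlap each other. The same letters were present in 16.5% of all 32851 upstream windows. Shown here, 5′ to 3′ on the strand of the gene with the motif in capitals, are the window of Cnp, which was called lower in cKO (chr11:100574689-100574938, plus strand), that of the start of Gjb1 furthest downstream, listed higher in cKO without passing the test (chrX:101383482-101383731, plus strand), that of 1 start of Mag, with no difference called (chr7:30914864-30915113, minus strand), and that of Prx, with no difference called and no motif (chr7:27499074-27499323, plus strand).
Cnp: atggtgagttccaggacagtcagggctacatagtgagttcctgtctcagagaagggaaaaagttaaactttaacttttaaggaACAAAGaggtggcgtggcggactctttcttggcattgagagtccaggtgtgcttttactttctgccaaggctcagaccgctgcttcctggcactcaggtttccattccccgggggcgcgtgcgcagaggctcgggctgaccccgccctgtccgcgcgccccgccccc
Gjb1: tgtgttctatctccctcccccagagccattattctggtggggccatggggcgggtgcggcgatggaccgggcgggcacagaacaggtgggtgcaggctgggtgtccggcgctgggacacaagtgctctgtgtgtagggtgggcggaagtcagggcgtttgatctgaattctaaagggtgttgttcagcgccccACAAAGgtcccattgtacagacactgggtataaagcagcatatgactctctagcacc
Mag: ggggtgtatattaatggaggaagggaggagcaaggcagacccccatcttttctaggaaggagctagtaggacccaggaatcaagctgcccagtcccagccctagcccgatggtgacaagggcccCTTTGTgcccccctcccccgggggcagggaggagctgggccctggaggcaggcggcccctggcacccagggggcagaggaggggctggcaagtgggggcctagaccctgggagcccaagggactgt
Prx: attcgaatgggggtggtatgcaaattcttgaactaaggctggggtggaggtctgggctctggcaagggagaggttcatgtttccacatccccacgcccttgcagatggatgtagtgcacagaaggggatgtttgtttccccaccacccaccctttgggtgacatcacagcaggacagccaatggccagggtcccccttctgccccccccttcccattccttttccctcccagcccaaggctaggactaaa
Of the 3 members with a motif, Cnp was called in cKO against control and Gjb1 and Mag were not. A match is a run of letters and not a bound site.

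Of the 8 members, Pmp2 was called higher in cKO than in control, Cnp was called lower, and the other 6 were not called (limma on all 15014 genes, Benjamini-Hochberg adjusted p under 0.05). Of all genes tested 1.57% passed in this comparison, 0.932% higher and 0.633% lower. In cKO against cHet, 1 member rose (Pmp2) and 7 did not pass, where 1.71% of all genes passed, 0.932% higher and 0.773% lower. In cHet against control 0 members passed, and 0% of all genes did. At an unadjusted p under 0.05, 1 member was lower in cHet than in control (Cnp), and 408 of all genes tested differed at that level in either direction. The median log2 fold change over the members was -0.16 in cKO against control, 0.06 in cHet against control and -0.23 in cKO against cHet, beside -0.02, -0.03 and 0.02 over all genes. The comparisons share libraries and are not independent of each other.

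**Figure D1:**
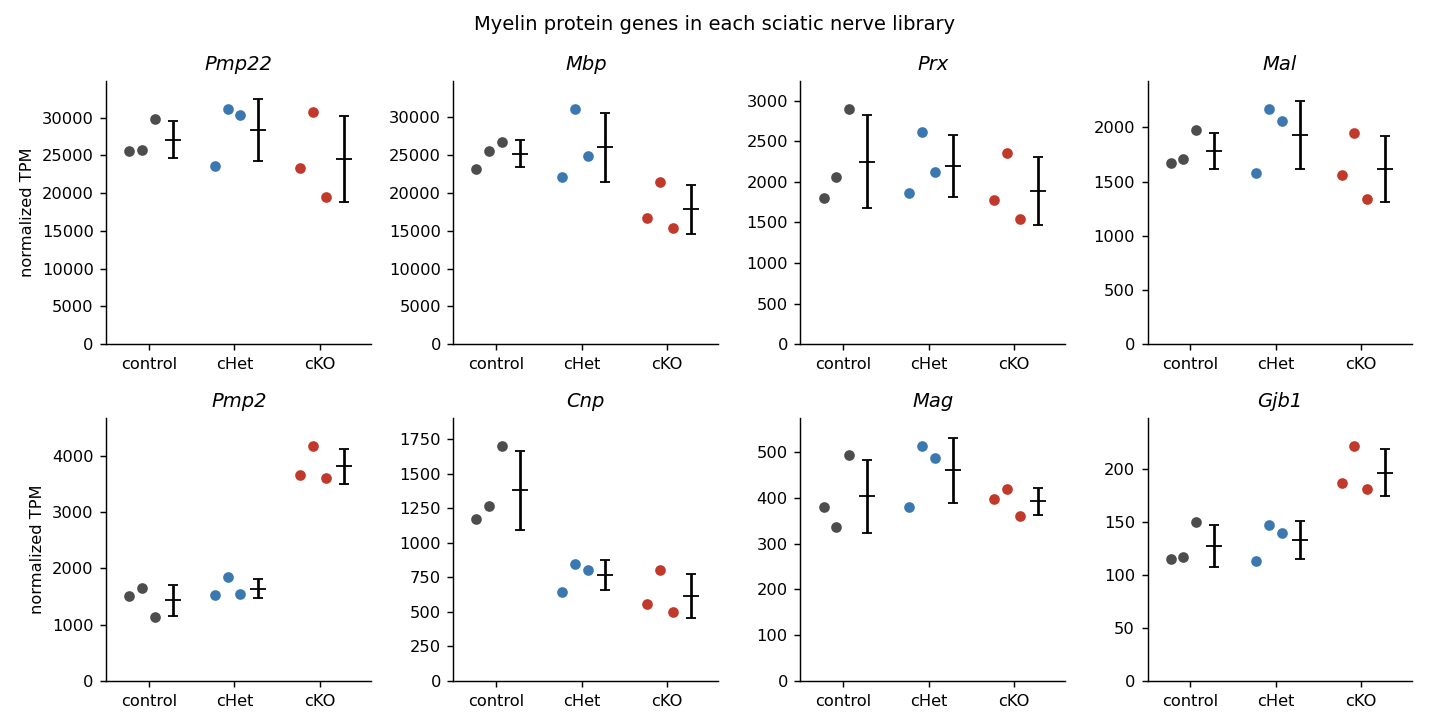
Normalized TPM (vertical axes, from 0) of the 8 myelin protein genes in each library, grouped by genotype; points are libraries in the order of mouse number and black bars are the mean ± SD of 3. Pmp2 and Gjb1 stood higher in all cKO libraries than in any other, Mbp lower, and Cnp was lower in both Cre-carrying groups than in control.

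Of the proteins of compact myelin, only Pmp2 passed the test in any comparison. Pmp2 encodes P2, a fatty acid-binding protein of the cytoplasmic membrane face (chr3:10179851-10183929, minus strand, GRCm38). Its annotated span overlaps that of Gm37389, a protein-coding gene on the same strand. Gm37389 had a mean of 0.034 normalized TPM and was not tested, nor was the division of reads between the 2 genes. Pmp2 was listed at 1509, 1647 and 1130 normalized TPM in control mice ID-2743, ID-2746 and ID-2754, at 1531, 1840 and 1545 in cHet mice ID-2742, ID-2745 and ID-2750, and at 3649, 4171 and 3602 in cKO mice ID-2744, ID-2747 and ID-2748. All cKO values lay far above both other groups, which overlapped each other. The means were 1429 ± 268 (SD, n = 3), 1638 ± 175 and 3807 ± 316. The log2 fold change was 1.43 ± 0.17 (SE) in cKO against control (95% confidence interval 1.04 to 1.82, limma adjusted p = 0.00857) and 1.22 ± 0.17 in cKO against cHet (0.83 to 1.61, adjusted p = 0.0141). In cHet against control it was 0.21 (-0.18 to 0.60, adjusted p = 1.0). Pmp2 lost the call against control when the 3 neuron-rich, 2 muscle-rich or 2 adipocyte-rich libraries were left out (log2 fold changes 1.58, 1.52 and 1.21, adjusted p = 0.123, 0.107 and 0.15), which also leaves fewer libraries. Of all genes, only 15, 23 and 19 passed in these fits, against 235 in the main fit. The call against cHet was lost in 5 of the 9 fits that left out 1 library each, without any 1 of the cHet libraries or without cKO ID-2744 or ID-2748 (adjusted p = 0.0511 to 0.0794, log2 fold changes 1.17 to 1.30). In those 5 fits 55 to 132 of all genes passed, against 256 in the main fit.

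Mbp, the main basic protein of the cytoplasmic face, was lower in every cKO library than in any other, without passing the test. Its values were 23178, 25577 and 26727 normalized TPM in control, 22077, 31048 and 24886 in cHet and 16615, 21488 and 15387 in cKO. The cKO mean of 17830 ± 3227 was 70.9% of the control mean of 25161 ± 1811 and 68.6% of the cHet mean of 26004 ± 4589. The log2 fold change was -0.51 against control (-1.16 to 0.14, limma adjusted p = 0.516) and -0.54 against cHet (-1.19 to 0.10, adjusted p = 0.428). Groups that did not overlap were common in these comparisons, at 17.4% of all genes in cKO against control (8.85% higher, 8.57% lower), 24.3% in cKO against cHet (13.3% higher, 11% lower) and 7.1% in cHet against control (2.69% higher, 4.41% lower). Among the members, Pmp2 and Gjb1 (higher) and Mbp and Cnp (lower) did not overlap in cKO against control, Pmp2 and Gjb1 (higher) and Mbp (lower) in cKO against cHet, and Cnp (lower) in cHet against control. For a single gene an exact two-sided permutation test of 3 mice against 3 cannot give a p under 0.1, the value each of these reached.

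Pmp22, a tetraspan protein of compact myelin whose dosage is altered in the commonest Charcot-Marie-Tooth neuropathy, did not separate the genotypes. It was listed at 25655, 25739 and 29884 in control, 23581, 31123 and 30404 in cHet and 23404, 30714 and 19553 in cKO. The cKO libraries spanned nearly the whole range of the others and extended below it. The log2 fold changes were -0.16 (-0.86 to 0.54, limma adjusted p = 0.896) in cKO against control and 0.06 (-0.64 to 0.76, adjusted p = 1.0) in cHet against control. These intervals leave room for changes of up to 1.45-fold higher and down to 0.550 of the control level in cKO.

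Mal, a tetraspan protein of membrane rafts involved in sorting to myelin, followed Pmp22 closely. The libraries held 1670, 1712 and 1975 normalized TPM in control, 1577, 2168 and 2055 in cHet and 1559, 1948 and 1341 in cKO. All 3 groups overlapped. The log2 fold change was -0.16 (-0.58 to 0.26, limma adjusted p = 0.807) in cKO against control, 0.11 (-0.31 to 0.52, adjusted p = 1.0) in cHet against control and -0.26 (-0.68 to 0.16, adjusted p = 0.578) in cKO against cHet.

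Among the genes of uncompacted myelin, Cnp was lower in both groups that carry Cnp-Cre. Cnp encodes a phosphodiesterase that keeps cytoplasmic channels open within the myelin sheath (chr11:100574904-100591729, plus strand, GRCm38). It was listed at 1168, 1267 and 1700 normalized TPM in control, 640, 849 and 803 in cHet and 554, 799 and 498 in cKO. Neither Cre-carrying group overlapped the control, and they overlapped each other. The cHet mean (764 ± 110) was 55.4% and the cKO mean (617 ± 160) 44.7% of the control mean (1379 ± 283). In cKO against control the log2 fold change was -1.17 ± 0.22 (SE; -1.67 to -0.68, limma adjusted p = 0.0402). In cHet against control it was -0.84 (-1.34 to -0.35), with a p of 0.00412 before and 1.0 after limma's adjustment over all genes. Against cHet, cKO differed by -0.33 (-0.82 to 0.17, adjusted p = 0.550). Since the Cre insertion in Cnp and the floxed alleles it recombines are present together, their parts in the control comparisons cannot be told apart.

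The Cnp call was the less stable of the 2. Leaving out 1 library kept it without cKO ID-2747 (adjusted p = 0.0378) and lost it without any 1 of the other 8 (adjusted p = 0.0543 to 0.157), while the log2 fold change stayed between -1.37 and -1.01. Without the neuron-rich, muscle-rich or adipocyte-rich libraries it was -1.08, -1.14 and -1.07 (adjusted p = 0.232, 0.172 and 0.259). In these fits 15, 23 and 19 of all genes passed, against 235 in the main fit. The highest Cnp value came from control ID-2754. This library also had the highest Mobp (138 normalized TPM, against 9.62 to 32.2 elsewhere), Sox10 (530, against 228 to 370) and Erbb3 (117). Other markers on the same lists did not follow. S100b (493) and Cdh19 (129) were the lowest of the control libraries, and Hapln2 (3.64) was below every cKO library (lowest 4.17). Without ID-2754 the log2 fold change of Cnp was -1.01 (limma adjusted p = 0.109). The part of Schwann cell or oligodendrocyte content in the result was not otherwise tested. The annotated span of Cnp overlaps that of Dnajc7 on the other strand, and whether the counting used strand is not given in the sources used here. Dnajc7 gave log2 fold changes of 0.27 (limma adjusted p = 0.481) in cKO and 0.18 (adjusted p = 1.0) in cHet against control.

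Gjb1 was higher in cKO than in any other library, though it missed the threshold. Its product, connexin 32, forms gap junctions between the turns of uncompacted myelin (chrX:101376378-101385629, plus strand, GRCm38). The values were 116, 117 and 150 normalized TPM in control, 113, 147 and 140 in cHet and 187, 222 and 181 in cKO. Control and cHet overlapped, with means of 127 ± 19.4 and 133 ± 17.9, and the cKO mean was 197 ± 22.0. The log2 fold change was 0.63 (0.30 to 0.96) in cKO against control, with a p of 0.00221 before and 0.0873 after limma's adjustment, and 0.56 (0.23 to 0.90) in cKO against cHet, with 0.00419 and 0.114. Both intervals lie above 0. They are not adjusted, and at an unadjusted p under 0.05 (limma) many of the 15014 genes tested differed in either direction. These were 1935 in cKO against control and 2190 in cKO against cHet. The Schwann cell marker S100b moved with it, at 739 to 990 in cKO against 493 to 683 in control (log2 fold change 0.60, limma adjusted p = 0.148). The other listed Schwann cell markers did not: Sox10 (-0.11, adjusted p = 0.929), Erbb3 (-0.25, adjusted p = 0.696) and Cdh19 (-0.01, adjusted p = 0.978). With libraries scaled to the same mean of the Schwann cell markers, the Gjb1 log2 fold change in cKO against control was 0.57 (limma adjusted p = 0.0570). The part of these markers in the result was not otherwise tested.

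Mag, the myelin-associated glycoprotein of the inner membrane facing the axon, gave the smallest difference between cKO and control. It was listed at 379, 337 and 493 in control, 379, 513 and 487 in cHet and 397, 420 and 361 in cKO. The cKO libraries lay inside the control range. Log2 fold changes were -0.02 (-0.40 to 0.36, limma adjusted p = 0.978) in cKO against control, 0.20 (-0.18 to 0.58, adjusted p = 1.0) in cHet against control and -0.22 (-0.60 to 0.16, adjusted p = 0.613) in cKO against cHet.

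Prx encodes periaxin, which links the outer Schwann cell membrane to the basal lamina through a complex of DRP2 and dystroglycan. Its values were 1799, 2053 and 2893 normalized TPM in control, 1863, 2614 and 2115 in cHet and 1773, 2351 and 1536 in cKO. The groups overlapped. The log2 fold change was -0.25 (-0.78 to 0.29, limma adjusted p = 0.751) in cKO against control, -0.02 (-0.56 to 0.52, adjusted p = 1.0) in cHet against control and -0.23 (-0.77 to 0.31, adjusted p = 0.728) in cKO against cHet.

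**Figure D2:**
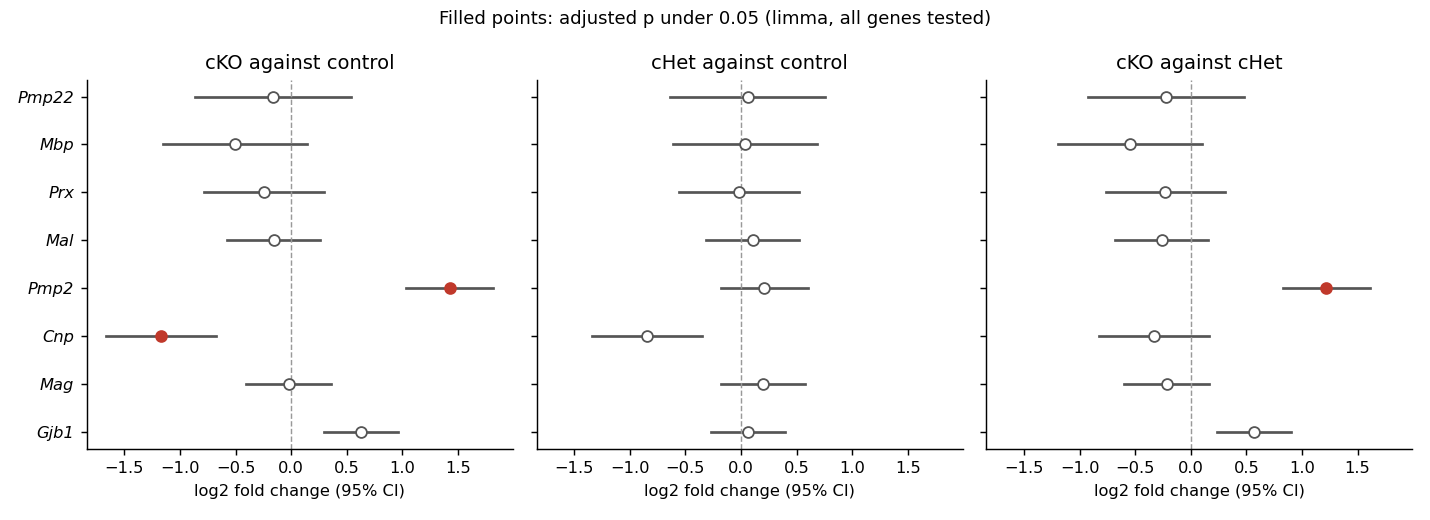
Log2 fold changes (horizontal axes, on the log2(value + 0.5) scale) of the 8 genes in the 3 comparisons, with 95% confidence intervals as lines; filled points passed the limma test over all genes. Pmp2 passed in both comparisons of cKO and Cnp in cKO against control, and the intervals of Gjb1 in cKO and of Cnp in cHet exclude 0 without passing the adjusted threshold.

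The levels themselves, which are scaled per transcript length, spanned more than 2 orders of magnitude. Pmp22 and Mbp ranked 2 and 3 among all genes of the nerve in every group. In control they were followed by Prx, Mal, Pmp2, Cnp, Mag and Gjb1, and the ranges of Pmp22 and Mbp, of Prx and Mal, and of Pmp2 and Cnp overlapped. The same order held in cHet, where Pmp22 and Mbp, Prx and Mal, and Mal and Pmp2 overlapped. In cKO, Pmp2 came next after Mbp, above Prx and Mal with no overlap. Among all genes, the rank of Pmp2 by mean level went from 67 in control to 52 in cHet and 24 in cKO, that of Cnp from 71 to 138 and 213, and that of Gjb1 from 1069 to 960 and 684.

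Together the 8 genes made up 5.42 to 6.69% of the summed normalized TPM of a control library, 5.44 to 7.29% of a cHet library and 4.19 to 5.36% of a cKO library. The cKO range of this share thus lay just below the others. The undivided sums of the 8 genes overlapped, at 55472 to 64952 in control, 51761 to 70304 in cHet and 42458 to 62114 in cKO. Within that sum Mbp and Pmp22 held 87.2 to 88.0% in control, 88.2 to 88.6% in cHet and 82.3 to 84.0% in cKO.

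Ratios of 2 members within a library do not depend on a factor by which the whole library was scaled. Of the 28 possible pairs, 21 had ratios that did not overlap between cKO and control. Each of these pairs held Pmp2, Gjb1, Cnp or Mbp, whose own levels already did not overlap in that comparison. The pairs share genes and are not independent counts, and the share among pairs of all genes was not computed. The remaining pairs were those among Pmp22, Mal, Mag and Prx, and Mbp with Prx. Pmp22 to Mal was the steadiest, at 14.4 to 15.8 in all 9 libraries. Cnp to Gjb1, chosen after the values were seen, separated all 3 groups, at 10.1 to 11.3 in control, 5.67 to 5.78 in cHet and 2.75 to 3.60 in cKO. The ratios of Mbp, Pmp22 and Pmp2 to Cnp and of Mag to Gjb1 also separated all 3. Mbp to Cnp and Mag to Gjb1 were highest in cHet. Mbp to Pmp22 lay at 0.894 to 0.994 in control, 0.819 to 0.998 in cHet and 0.7 to 0.787 in cKO, so that Mbp was lower in cKO also in proportion to Pmp22. Pmp2 to Mag was 2.29 to 4.89, 3.17 to 4.04 and 9.20 to 9.98.

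Set against the mean log2 level of the other 7 members in the same library, Pmp2 was higher in cKO than in control by 1.66 and Gjb1 by 0.75, and Cnp and Mbp differed by -1.31 and -0.55. For Cnp, cHet differed from control by -0.94. Mag differed by 0.01 in cKO. These differences are descriptions, since each member also enters the mean against which the others are set.

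**Figure D3:**
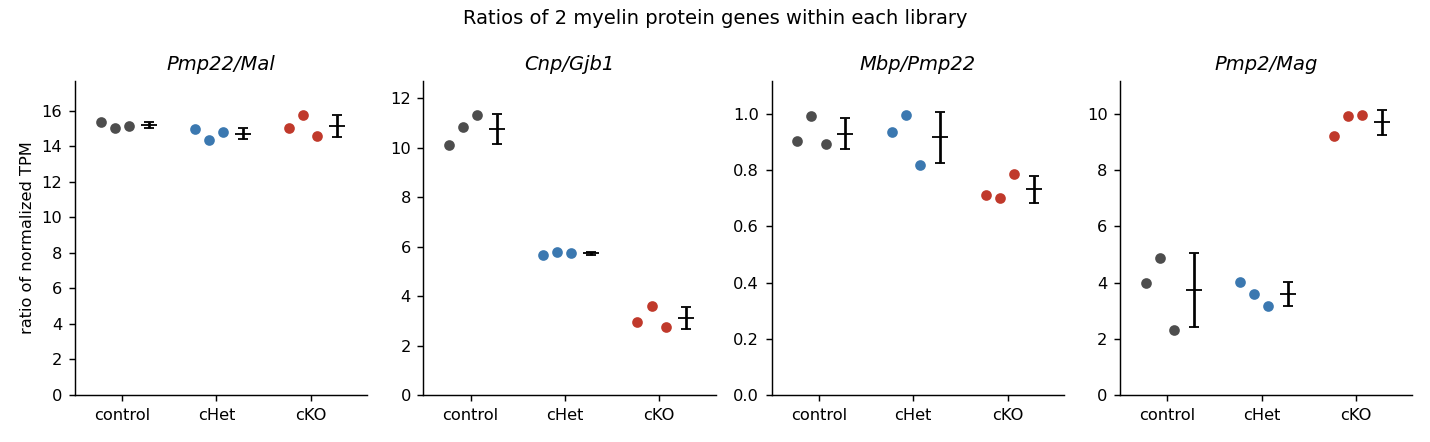
Ratio of the normalized TPM of 2 members in each library (vertical axes, from 0), by genotype, with the mean ± SD of 3 in black. Pmp22 to Mal stayed between 14.4 and 15.8, whereas Cnp to Gjb1 stepped down from control to cHet to cKO and Pmp2 to Mag stood above 9 in cKO alone.

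Within a genotype, the members other than Pmp2 moved together from mouse to mouse. After the group means were taken off the log2 values of the 9 libraries, the 21 pairs without Pmp2 had Pearson correlations of 0.64 to 0.99, with a median of 0.89. The 7 pairs with Pmp2 ranged from -0.35 to 0.38, with a median of -0.06. Pmp22 and Mal had the highest value, 0.99, followed by Cnp and Prx, 0.96. All genes of a library share its scaling and its mixture of tissue, so that these values describe the libraries.

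**Figure D4:**
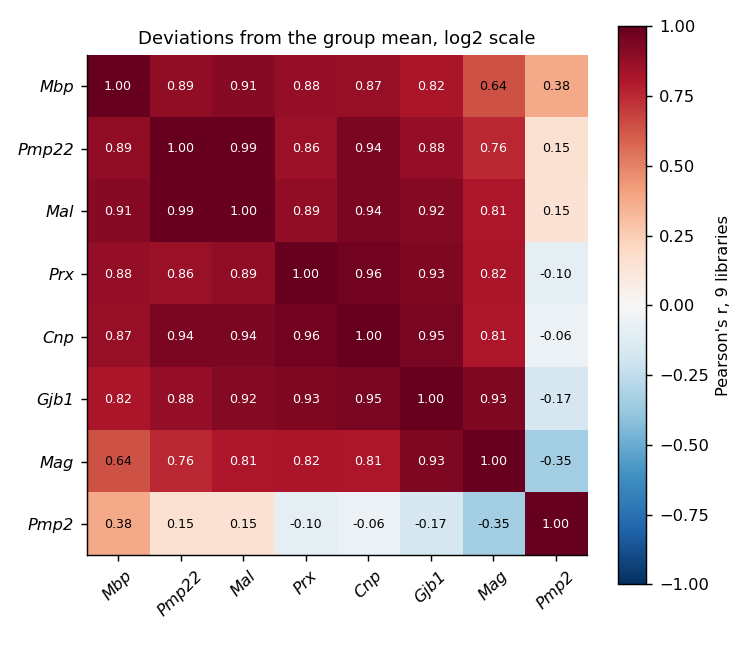
Pearson's r (colour and number) between each pair of members over 9 libraries, computed on log2 values after subtracting the mean of each genotype. The lower right edge shows Pmp2 apart, with r of -0.35 to 0.38, while the other pairs lie between 0.64 and 0.99.

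Across all 9 libraries, without removing group means, the genes most like Pmp2 by Pearson's r of log2 values were Gosr2 (0.993), Slc12a2 (0.988) and Arl1 (0.986). Those nearest to Gjb1 were Arhgap19 (0.984), Evc2 (0.982) and Lsm14a (0.981), and those nearest to Mbp were Pmvk (0.986), Emp2 (0.983) and Fads1 (0.982). Pmvk and Fads1 encode enzymes of isoprenoid and fatty acid synthesis. Pmp22 was nearest to Mal (0.985), Scn3b (0.951) and Cmtm6 (0.949), and Mal to Pmp22 (0.985), Scn3b (0.979) and Tmem19 (0.963). For Prx they were Plekha4 (0.987), Ahnak (0.980) and Gna12 (0.973), and for Mag Clk2 (0.965), C2cd4d (0.962) and Ccdc134 (0.946). Cnp had the weakest match, Lrrc17 (0.957), followed by 2 predicted genes. With 15014 genes and 9 libraries in 3 groups, high values of r are easily reached and are given as a description.

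A list of other genes of the myelin sheath held 16 symbols, of which 15 were in the table and tested and 1 was mistyped when the list was written, matched no gene and so was not tested. In cKO against control 1 of the 15 rose, 0 fell and 14 did not pass, with a median log2 fold change of 0.06. The gene that rose was Cdh1, which encodes E-cadherin of the adherens junctions in uncompacted myelin. It was listed at 44.7 to 51.5 normalized TPM in control, 53.7 to 60.5 in cHet and 90.6 to 101 in cKO, with no overlap between any 2 groups. Its log2 fold change was 0.97 (0.76 to 1.18, limma adjusted p = 0.00225) in cKO against control and 0.75 (0.54 to 0.95, adjusted p = 0.00852) in cKO against cHet, where it was again the only one of the 15 to pass. In cHet against control 0 of the 15 passed (limma), and 1 was higher at an unadjusted p under 0.05, Cdh1 (log2 fold change 0.22, interval 0.02 to 0.43). The medians of the list were 0.06 in cHet against control and -0.00 in cKO against cHet.

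The partners of periaxin were among those that did not pass in cKO against control, with log2 fold changes of -0.33 for Drp2 (limma adjusted p = 0.458) and 0.34 for Dag1 (adjusted p = 0.401).

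**Figure D5:**
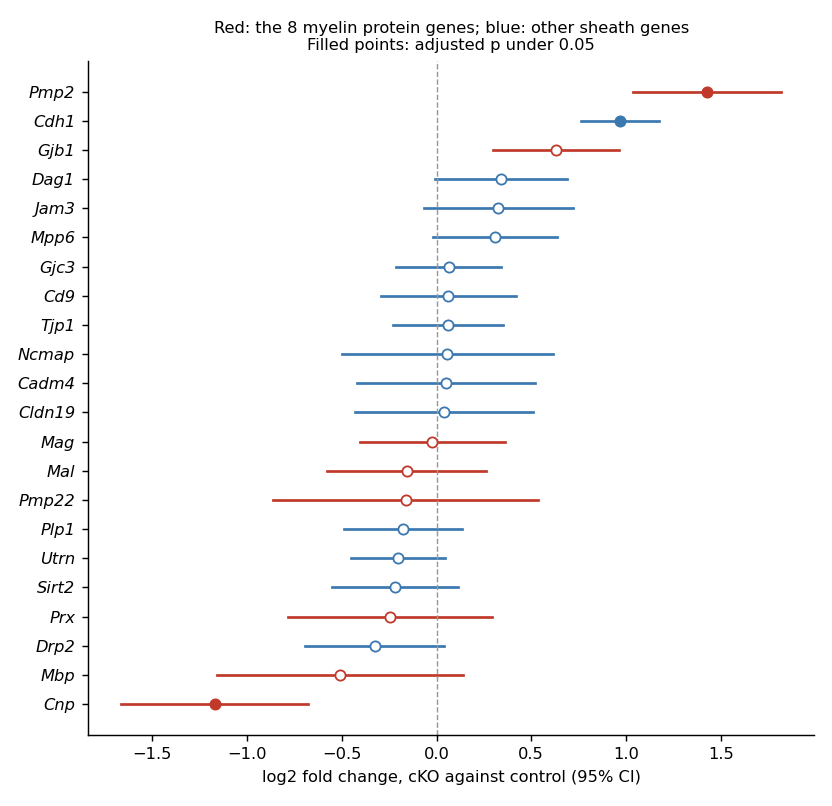
Log2 fold change in cKO against control (horizontal axis, with 95% confidence intervals) of the 8 members (red) and of 14 of the 15 other genes of the myelin sheath (blue), ordered by size; filled points passed the limma test over all genes. Pmp2 (1.43) and Cdh1 (0.97) lead, Gjb1 (0.63) follows without passing, and Cnp (-1.17) stands apart at the other end.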

How the data were processed

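RNA-seq was measured in sciatic nerves of 9 mice, 3 per genotype. The authors deposited 1 table of normalized TPM for 36121 genes, a signal scaled by them across libraries: the deposited values summed to 934932 to 1158094 per library, so they are not plain TPM. Kallisto 0.44.0, sleuth 0.30.0 and GRCm38 are named in the submitters' processing notes. How the values were scaled, the annotation release and the strand setting: not given in the sources used here. Read totals are not in the table, so depth is unknown and no counting interval is given. Separate mouse numbers mark separate animals.

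Of the genes, 650 had no symbol, and for 32 symbols on several genes the one with the highest mean was kept. Values were tested as log2(value + 0.5), on which scale fold changes of low genes are understated, for the 15014 genes whose mean was 1 or more, in 1 limma fit (limma 3.58.1, R 4.3.3) over all libraries, with a mean-variance trend and Benjamini-Hochberg adjustment at 0.05 over all genes tested. The fit was tested on simulated data. Single genes had an exact two-sided permutation test (scipy 1.17.1). All members, every listed sheath gene past the threshold, and the 3 genes most correlated with each member were named, predicted genes being only counted. Values of 1 listed sheath gene are not reported here, though it is in the counts. Drp2 and Dag1 were named after their values were seen. In all, 22 alternatives were planned and 3 sets of libraries were left out after seeing the data. Members and lists were chosen with earlier results of these data known. Of the marker lists, fibroblast markers summed to 4377 to 7032 normalized TPM in control, 5547 to 5988 in cHet and 3609 to 7154 in cKO, macrophage markers to 76.0 to 138, 93.4 to 113 and 80.9 to 129, and endothelial markers to 68.0 to 99.3, 73.0 to 87.2 and 62.0 to 75.5.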

Additional observations from a re-analysis of the deposited data

How the results depend on the processing

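In cKO against control, 2 members passed the limma test, Pmp2 and Cnp. Only 1, Pmp2, passed with no filter on low values, with median of ratios scaling, with sex as a covariate or without the mean-variance trend. Of all genes tested, 160, 169, 170 and 178 passed under these settings in that order, against 235 in the main fit. With only the 2 groups compared 0 members passed, beside 50 of 15043 genes. Without the neuron-rich, muscle-rich or adipocyte-rich libraries (sets chosen after seeing the data) 0 members passed. Of all genes, 15 of 14720, 23 of 14935 and 19 of 15016 did. Without the 3 libraries whose genotype field differed from the title, 1 cKO library remains, so only effect sizes are given and no call is read from them. The log2 fold changes were 1.35 for Pmp2 and -1.45 for Cnp. Leaving out 1 library gave 1 to 2 members, and 49 to 176 of all genes. In cKO against cHet, 1 member passed, beside 256 of all genes. With no filter on low values 0 members passed, beside 168 of 26578 genes. With libraries scaled to the same mean of the Schwann cell markers 0 did, beside 93 of 15065. Without the neuron-rich or muscle-rich libraries 0 did, beside 15 of 14720 and 40 of 14935. Without the 3 libraries with differing genotype fields, the log2 fold change of Pmp2 was 1.09. Array weights gave 2, Pmp2 and Gjb1 (log2 fold change 0.46, adjusted p = 0.0405), beside 848 of all genes. Leaving out 1 library gave 0 to 1 members, and 55 to 270 of all genes. In cHet against control 0 passed under every alternative run. Without the libraries with differing genotype fields, cKO holds 1 library, assumed to vary like the others. Some of these alternatives used fewer samples or tested more genes and others did neither, and the cause of the changed calls was not tested.

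Over the 25 alternatives, the log2 fold change in cKO against control ranged from 1.16 to 1.58 for Pmp2 (adjusted p = 0.00398 to 0.453), from -1.45 to -1.01 for Cnp (0.0105 to 0.383), from 0.52 to 0.75 for Gjb1 (0.0570 to 0.830) and from -0.71 to -0.28 for Mbp (0.255 to 0.964). Rescaling libraries to the same sum moved the median of all genes in cKO against cHet to -0.12.

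Differences near 0, none of which passed, changed sign under some alternatives. Pmp22 in cKO against control was 0 with quantile normalization. Mag in cKO against control was 0.0021 without the muscle-rich and 0.22 without the adipocyte-rich libraries, and -0.14 to 0.13 with 1 library left out. In cHet against control, Mbp was -0.022 without the muscle-rich libraries (-0.10 to 0.15 with 1 library left out), Pmp22 -0.013 to 0.19 with 1 left out, Pmp2 -0.013 without the adipocyte-rich libraries, and Gjb1 -0.00030 without the muscle-rich libraries (-0.011 to 0.19 with 1 library left out). Prx was -0.16 to 0.18 with 1 library left out, 0.060 at the same library sum, 0.13 with quantile normalization, 0.076 with array weights, 0.095 without the libraries with differing genotype fields, and 0.044 and 0.084 without the neuron-rich and adipocyte-rich libraries.

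No paired analysis was possible because each mouse has its own number and the labels give no litter or batch. The methods describe sets of mice from 1 litter or from litters born close together. The labels do not say which mice formed a set, so litter was not tested.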
